A study of Mus musculus with 18 samples.

Results

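The 40 genes described here encode proteins that repair DNA, and they were followed in the ovaries of 18 female wild-type Balb/c mice. They were taken from a list of repair genes, on the condition that at least 6 libraries held 10 or more counts. All 40 listed genes met it, as did 17131 of the 55416 genes in the deposited tables, and all 40 were among the 16959 genes that entered the tests. The condition on counts used no difference between groups. There were 3 groups of 6 mice: 40-week mice dosed by mouth with 2.5 g/kg of the herbal decoction Samul-tang (OC+SM); 40-week mice on distilled water (OC); and 8-week mice on distilled water (YC). Doses were given 5 times a week for 4 weeks. All 3 groups were then superovulated: 5 IU of PMSG, a serum gonadotropin that makes follicles grow, was followed after 48 hours by 5 IU of hCG, the hormone that triggers ovulation, and ovaries were collected 16 hours after hCG. OC and OC+SM mice were kept apart within a shared cage, per the labels' protocols. Each library was 1 mouse, so p-values measure the spread between mice.

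Damage to DNA is removed by several routes. Homologous recombination copies an intact sister or homologue to mend a break across both strands, while end joining ligates the broken ends directly. Base excision, mismatch and nucleotide excision repair cut out altered or mispaired bases, and the Fanconi anemia proteins handle crosslinks between strands. Oocytes enter meiosis before birth and are then held for long periods before ovulation, and several of these genes are known from human or mouse studies to affect how long the ovarian reserve lasts.

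Total counts per library, in units of 1000000 counts, ran from 14.2 to 20.4 in OC+SM, from 11.6 to 13.4 in OC and from 9.05 to 14.1 in YC ovaries. Every OC+SM library was deeper than every OC library (exact permutation p = 0.00216, the smallest it can give; adjusted p = 0.00696 over 45 tests of library measures). OC+SM libraries 1, 2 and 3 also stood apart: 6.20 to 10.2% of their counts fell on the most abundant gene, ENSMUSG00000119584, which took 12.0 to 14.4% in the other OC+SM libraries, 13.8 to 18.5% in OC and 12.6 to 16.0% in YC libraries. Calls in OC+SM ovaries are also given without these 3 libraries, after the values from all 6. YC library 3 and OC+SM library 6 correlated least with the others of their groups (mean r of 0.964 and 0.963). The label of ovary was checked against oocyte, granulosa and steroidogenic markers, and none of them was without counts. Levels are given as CPM, counts per 1000000 counts of a library, after scaling by the trimmed mean of M values (TMM). Fold changes are on the log2 scale, and SE is the standard error from the edgeR quasi-likelihood fit. Adjusted p-values are Benjamini-Hochberg values over all 16959 genes, and a gene was called where this value was under 0.05.

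With age alone, in OC against YC ovaries, 5 of the 40 repair genes fell and none rose, where 6.03% of all genes tested fell and 5.25% rose. The 5 were Ung, Brca2, Blm, Rad54l and Msh6. They belong to 4 repair routes: base excision, homologous recombination (Brca2 and Rad54l), mismatch repair and the helicases. The 5 genes made up 12.5% of the members. The median log2 fold change of the 40 was -0.10, against 0.01 for all genes tested, and 28 were negative and 12 positive. At an unadjusted p under 0.05, 8 members were lower and 1 higher, where 11.7% of all genes were lower and 12.3% higher. In bulk ovary RNA, fewer cells of a type and less RNA per cell cannot be told apart.

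**Figure D1:**
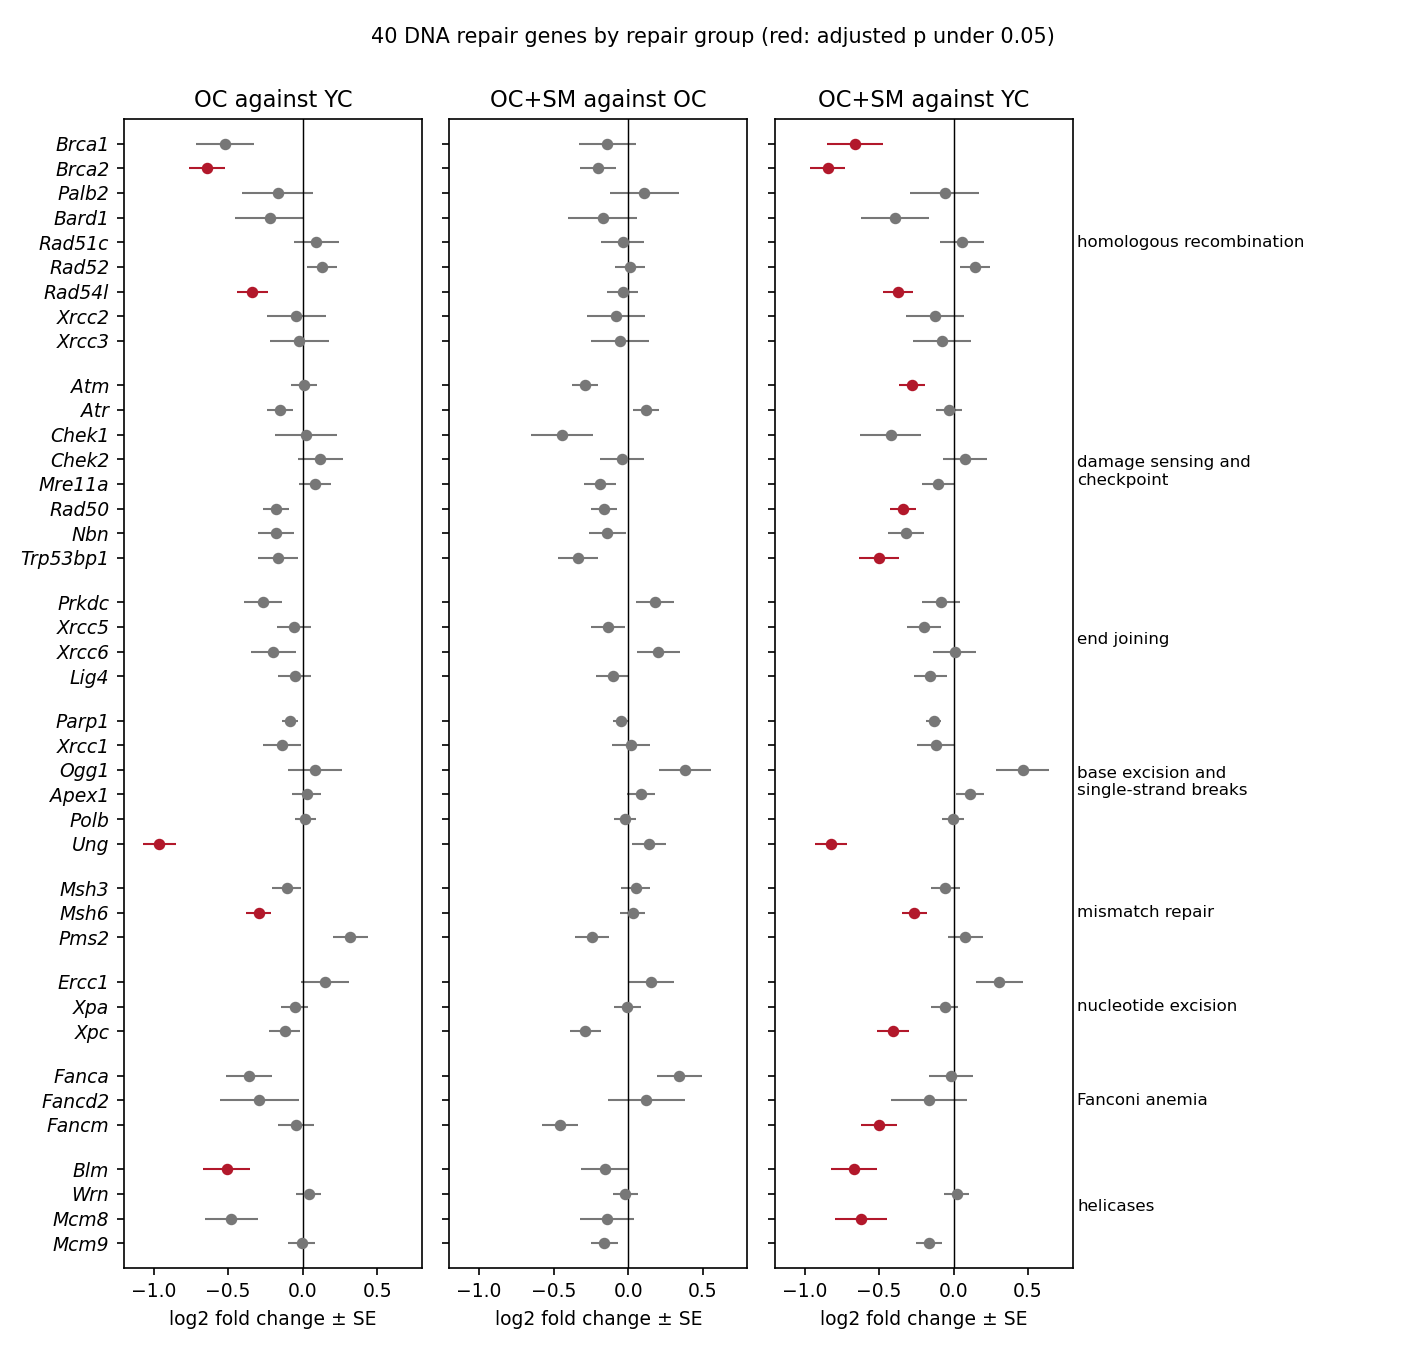
Log2 fold change with its SE (horizontal axis) of each of the 40 DNA repair genes (rows, by repair group) in OC against YC, OC+SM against OC and OC+SM against YC ovaries, 6 mice per group, with called genes in red. The called genes, 5 with age, 0 between OC+SM and OC and 12 in OC+SM against YC, all lie left of 0.

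Ung, the glycosylase that removes uracil from DNA at the start of base excision, showed the largest change with age. It had 9.24, 11.6 and 13.2 CPM (lowest, median, highest) in OC ovaries, against 17.7, 23.0 and 24.9 CPM in YC ovaries. Every OC library lay below every YC library. The mean was 11.3 ± 1.72 CPM in OC and 22.1 ± 2.89 CPM in YC ovaries (SD, n = 6 each), a log2 fold change of -0.96 ± 0.11 SE (edgeR adjusted p = 3.25e-06). Ung was the only member of its group to pass. The other 5 genes of base excision and single-strand break repair lay between -0.14 and 0.08 on the log2 scale, with a lowest adjusted p of 0.347. They were Parp1, which senses nicks, the scaffold Xrcc1, Ogg1, which removes oxidised guanine, Apex1, which cuts at sites without a base, and Polb, the polymerase that fills the gap. Polb stood at 35.4 ± 3.32 CPM in OC and 35.0 ± 2.86 CPM in YC ovaries (SD, n = 6 each), a difference of 0.02 ± 0.07 on the log2 scale.

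In homologous recombination, Brca2, which loads the recombinase onto single-stranded DNA, fell. OC ovaries had 10.9, 14.7 and 17.9 CPM (lowest, median, highest) and YC ovaries 19.4, 21.7 and 27.9 CPM. The groups did not overlap, as for Ung; these were the only 2 members for which that held, or 5.0% of them, where 4.17% of all genes tested had every OC library below every YC library. The log2 fold change was -0.64 ± 0.12 SE (edgeR adjusted p = 0.000814). Rad54l, a motor protein that helps the recombinase invade the intact duplex, had 20.9, 29.9 and 34.9 CPM in OC ovaries, against 33.5, 36.2 and 41.0 CPM in YC ovaries. Its groups overlapped, and the log2 fold change was -0.34 ± 0.10 SE (edgeR adjusted p = 0.0347). Rad54l lost its call without any 1 of OC libraries 2, 4 and 6 and YC libraries 2, 3, 4 and 5, with log2 fold changes between -0.35 and -0.27 and adjusted p-values up to 0.0949. Brca1, a ubiquitin ligase that steers broken ends to recombination, had 2.99, 4.51 and 5.89 CPM in OC ovaries, against 4.21, 6.78 and 7.53 CPM in YC ovaries. These ranges overlapped, and its log2 fold change of -0.52 ± 0.19 SE did not pass (edgeR adjusted p = 0.0823). It passed without OC library 6 (-0.62) or without YC library 5 (-0.62). The other 6 genes of the group did not pass either. They are Bard1, the partner of Brca1, Palb2, which bridges Brca1 and Brca2, the annealing protein Rad52 and the recombinase paralogs Rad51c, Xrcc2 and Xrcc3, and their log2 fold changes ran from -0.22 ± 0.23 SE for Bard1 to 0.13 ± 0.10 SE for Rad52.

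In mismatch repair, Msh6, a subunit of the dimer that recognises mispaired bases, fell. OC ovaries had 22.0, 24.9 and 28.5 CPM (lowest, median, highest) and YC ovaries 26.9, 30.7 and 34.6 CPM. The ranges overlapped by a small margin, and the log2 fold change was -0.29 ± 0.08 SE (edgeR adjusted p = 0.0226). Without OC library 5 or YC library 2 the value was -0.26 or -0.25 and no longer passed (adjusted p = 0.0600 and 0.0687). Msh3, which recognises larger loops, had -0.11 ± 0.10. Pms2, the nuclease subunit that acts after recognition, had 10.4 ± 0.496 CPM in OC and 8.36 ± 0.959 CPM in YC ovaries (SD, n = 6 each). It was the only member with an unadjusted p under 0.05 in the upward direction with age, and it did not pass after adjustment (0.32 ± 0.12 SE, edgeR adjusted p = 0.0800).

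Among the helicases, Blm, which unwinds recombination intermediates together with a topoisomerase, fell. It had 6.32, 7.97 and 11.0 CPM (lowest, median, highest) in OC ovaries, against 8.47, 11.8 and 13.4 CPM in YC ovaries. The groups overlapped, and the log2 fold change was -0.51 ± 0.16 SE (edgeR adjusted p = 0.0366). The call was lost without any 1 of OC libraries 1, 2, 4 and 5 and YC libraries 3, 4, 5 and 6, with values between -0.52 and -0.45 and adjusted p-values up to 0.0905. Mcm8, which forms a helicase complex with Mcm9 for recombination, had 2.32, 2.96 and 4.13 CPM in OC ovaries, against 3.37, 4.36 and 5.04 CPM in YC ovaries. These ranges overlapped and its change did not pass (-0.48 ± 0.18 SE, edgeR adjusted p = 0.0846), but it passed without OC library 1 (-0.59, adjusted p = 0.0433). Its partner Mcm9 stood at -0.01 ± 0.09 and Wrn, a relative of Blm, at 0.04 ± 0.08.

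**Figure D2:**
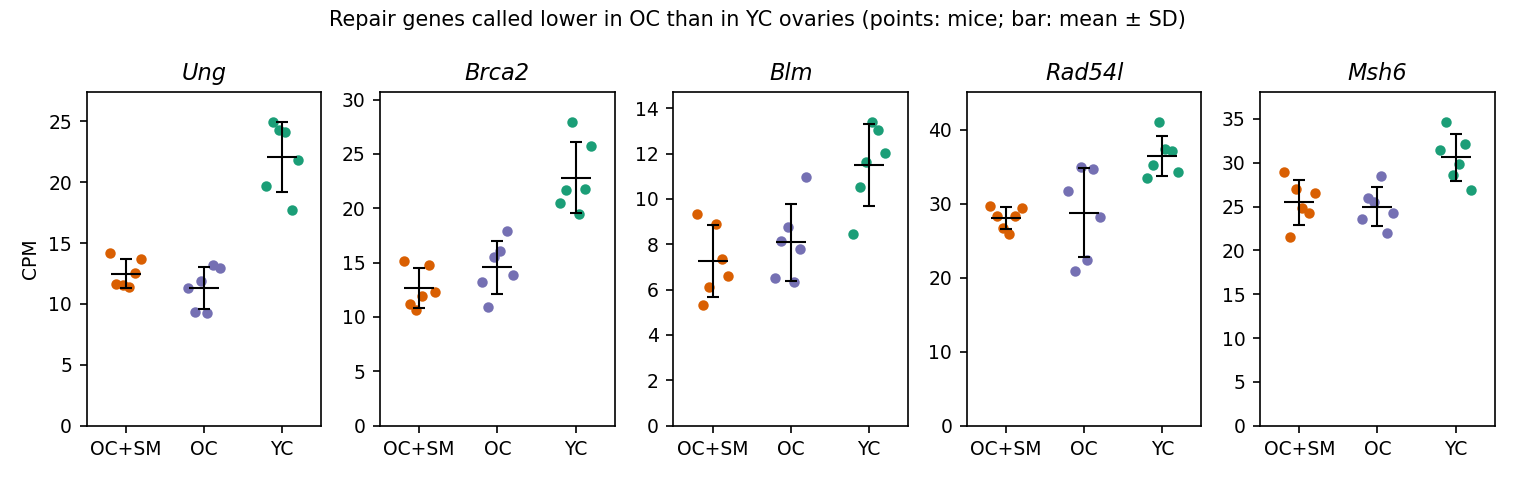
CPM (vertical axis, from 0) of the 5 repair genes called lower in OC than in YC ovaries, with 1 point per mouse and the mean ± SD of 6 mice as a bar. For Ung and Brca2 all 6 OC points lie below all 6 YC points, and for Blm, Rad54l and Msh6 the groups overlap.

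None of the 18 genes of the other 4 routes passed with age. In damage sensing and checkpoint control the 8 genes ran from -0.18 to 0.12 on the log2 scale. Atm, the kinase that responds to broken ends, had 30.6, 33.7 and 37.2 CPM in OC ovaries, against 29.4, 34.3 and 36.6 CPM in YC ovaries, ranges that covered each other almost wholly (log2 fold change 0.01 ± 0.09 SE). Its relative Atr, which responds to single-stranded DNA, stood at -0.15 ± 0.09, and the kinases they act on, Chek1 and Chek2, at 0.02 ± 0.21 and 0.12 ± 0.15. The complex that binds broken ends had Rad50 at -0.18 ± 0.09, Nbn at -0.18 ± 0.12 and Mre11a at 0.08 ± 0.11. Trp53bp1, which shields ends from resection, had -0.16 ± 0.13. In end joining all 4 values were negative and none passed; the kinase subunit Prkdc had 8.45, 9.69 and 10.7 CPM in OC ovaries, against 9.28, 12.0 and 13.0 CPM in YC ovaries, with overlap (-0.27 ± 0.13 SE, edgeR adjusted p = 0.209). The Ku subunits Xrcc5 and Xrcc6 stood at -0.06 ± 0.11 and -0.20 ± 0.15, and the ligase Lig4 at -0.05 ± 0.11. In nucleotide excision, the damage sensor Xpc (-0.12 ± 0.11), the scaffold Xpa (-0.05 ± 0.09) and the nuclease subunit Ercc1 (0.15 ± 0.16) did not pass.

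In the Fanconi anemia group, Fanca, a subunit of the core complex, had 5.05, 6.44 and 7.08 CPM in OC ovaries, against 4.97, 8.26 and 10.4 CPM in YC ovaries. The OC range lay within that of YC, and the change did not pass (-0.36 ± 0.15 SE, edgeR adjusted p = 0.141). It passed without YC library 4 (-0.47, adjusted p = 0.0304). Fancd2, which the core complex modifies with ubiquitin, had -0.29 ± 0.26 at 2.18 ± 0.854 CPM in OC and 2.66 ± 0.304 CPM in YC ovaries (SD, n = 6 each), the largest SE of any member. Fancm, the translocase that brings the core complex to DNA, stood at -0.04 ± 0.12.

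The promoters of the 5 genes that fell with age are shown because these genes fell in the same comparison, from RefSeq on build GRCm38.p6; the submitters' processing notes name another build, GRCm39, so no other coordinates are given. Each window runs 5′ to 3′ on the gene's strand, from 250 bases before to 50 bases after the annotated start. Capitals mark TTTCCCGC or TTTGGCGC (E2F-like), CCAAT (NF-Y-like) and TGACGTCA (CRE-like) on either strand, so that GCGGGAAA and ATTGG are their reverse complements.
Ung, chr5:114130185-114130484, plus strand: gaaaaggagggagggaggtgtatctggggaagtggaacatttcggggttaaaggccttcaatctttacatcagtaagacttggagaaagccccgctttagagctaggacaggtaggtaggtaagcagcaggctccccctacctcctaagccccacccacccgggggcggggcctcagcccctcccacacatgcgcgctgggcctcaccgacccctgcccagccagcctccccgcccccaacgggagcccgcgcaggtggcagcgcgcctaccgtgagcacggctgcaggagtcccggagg
Brca2, chr5:150522371-150522670, plus strand: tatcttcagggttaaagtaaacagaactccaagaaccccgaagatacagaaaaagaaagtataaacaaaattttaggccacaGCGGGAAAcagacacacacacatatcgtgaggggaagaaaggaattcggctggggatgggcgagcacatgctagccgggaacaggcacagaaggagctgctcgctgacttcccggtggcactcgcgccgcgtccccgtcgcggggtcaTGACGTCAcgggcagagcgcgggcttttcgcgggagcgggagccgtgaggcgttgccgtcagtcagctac
Rad54l, chr4:116123641-116123940, minus strand: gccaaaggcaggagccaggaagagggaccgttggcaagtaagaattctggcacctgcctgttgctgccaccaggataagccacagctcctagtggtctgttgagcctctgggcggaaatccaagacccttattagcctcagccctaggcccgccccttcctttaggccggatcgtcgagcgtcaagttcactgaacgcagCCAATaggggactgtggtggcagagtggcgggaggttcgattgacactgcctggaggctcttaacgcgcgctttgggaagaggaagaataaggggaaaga
Msh6, chr17:87974800-87975099, plus strand: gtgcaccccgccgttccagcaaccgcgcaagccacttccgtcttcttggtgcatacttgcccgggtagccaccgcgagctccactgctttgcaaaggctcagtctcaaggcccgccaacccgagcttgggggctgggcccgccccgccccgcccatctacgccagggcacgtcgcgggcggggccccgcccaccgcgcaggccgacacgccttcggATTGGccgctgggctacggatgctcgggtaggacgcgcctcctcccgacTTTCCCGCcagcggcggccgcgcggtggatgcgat
Blm, chr7:80534949-80535248, minus strand: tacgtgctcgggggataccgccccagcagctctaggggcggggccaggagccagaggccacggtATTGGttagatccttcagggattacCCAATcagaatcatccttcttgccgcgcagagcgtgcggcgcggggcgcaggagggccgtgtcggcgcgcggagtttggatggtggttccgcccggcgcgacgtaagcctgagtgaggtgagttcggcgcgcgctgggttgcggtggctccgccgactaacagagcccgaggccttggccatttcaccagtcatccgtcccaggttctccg

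Of these 5 windows, those of Brca2 and Msh6 held TTTCCCGC, those of Rad54l, Msh6 and Blm held CCAAT, and that of Brca2 held TGACGTCA 20 bases before the start. The Ung window held none of them. A window was given for 32 of the 40 members. An E2F-like 8-mer stood in 7 of the 32 (21.9%), against 337 of 11336 windows of genes tested (2.97%) and 1.63% of all 27025 windows. The 7 genes were Bard1, Brca2, Chek2, Mcm8, Msh3, Msh6 and Xrcc6. CCAAT stood in 62.5% of the member windows and 38.5% of those of genes tested, GGGCGG (Sp1-like) in 75.0% and 62.1%, TTTGAA (CHR-like) in 3.13% and 12.3%, and TGACGTCA in 6.25% and 3.07%. All were counted on both strands, and none of the 6 motifs contains another. Among members called in neither comparison with YC, the E2F-like share was 4 of 22 (18.2%). The matches are letters in a window and no binding was measured.

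Markers of other cells moved in the same comparison. Of 19 oocyte markers tested, all 19 fell in OC against YC ovaries, with a summed level of 52.4 to 87.7 CPM in OC and 169 to 259 CPM in YC ovaries (means 65.3 ± 14.9 and 220 ± 30.9, SD, n = 6 each; exact permutation p = 0.00216, the smallest possible, adjusted p = 0.00696). Of 24 dividing cell markers, 6 fell and none rose, with sums of 647 to 748 CPM in OC and 771 to 883 CPM in YC ovaries (exact permutation p = 0.00216, n = 6 each, adjusted p = 0.00696); the 6 were Mcm2, Mcm3, Mcm5, Mcm6, Mcm7 and Uhrf1, which serve DNA replication and its methylation. Of 12 granulosa markers, 8 fell and none rose. All 5 smooth muscle markers fell (ratio of the mean sums, OC over YC, 0.594), as did 3 of 5 theca markers (0.611). Higher in OC ovaries were 3 of 8 luteal and steroidogenic markers (ratio 1.34), 2 of 5 endothelial markers (1.21), 1 of 2 tested T and NK cell markers (2.52) and 2 of 4 tested B and plasma cell markers (2.44), with no marker of these lists called lower. By exact permutation these 6 sums had adjusted p-values of 0.00696, or 0.0122 for theca (n = 6 each). Of 8 macrophage markers 1 rose, and no erythrocyte or tested oviduct marker was called. With the oocyte sum as a covariate, the log2 fold change was -0.63 ± 0.28 SE for Ung, -0.38 ± 0.27 for Rad54l, -0.29 ± 0.22 for Msh6, -0.27 ± 0.30 for Brca2 and -0.05 ± 0.40 for Blm, and none of the 40 genes was called. The SE of these 5 was larger with that covariate, whose values in OC and YC ovaries did not overlap. The share of all genes called with it is not given here. With the dividing cell sum as a covariate 4 of the 5 remained called, and Blm stood at -0.41 ± 0.16 (edgeR adjusted p = 0.110). For that fit the share of all genes called is not given either. The part of the cells in the lists without a covariate was not tested.

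**Figure D3:**
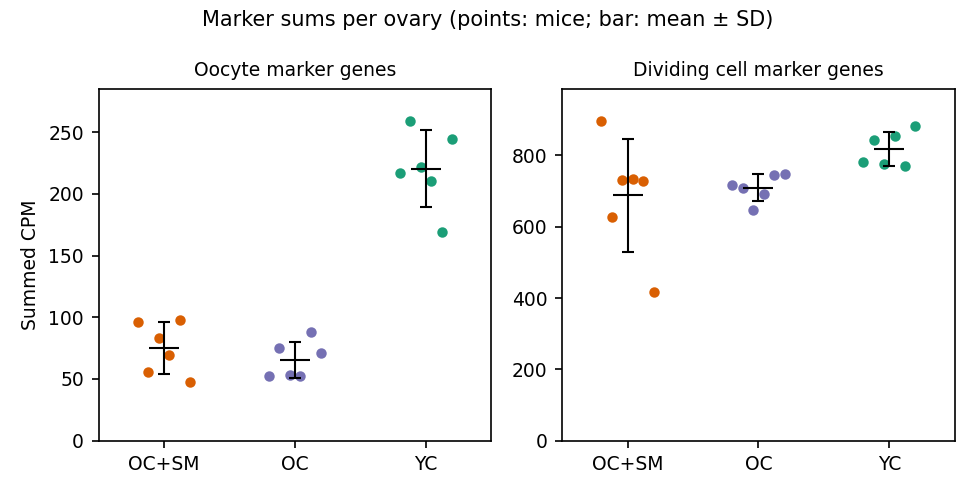
Summed CPM (vertical axis, from 0) of the oocyte markers (left) and the dividing cell markers (right), with 1 point per mouse and the mean ± SD of 6 mice as a bar. The oocyte sums of OC+SM (47.3 to 98.0) and OC (52.4 to 87.7) lie below those of YC (169 to 259), while the dividing cell sums of OC+SM run from 417 to 897.

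In the edgeR fit of all 18 libraries, Samul-tang gave no called change in any of the 40 repair genes. In OC+SM against OC ovaries the edgeR test called 0 members, where 0.489% of all genes were called lower and 0.548% higher; at an unadjusted p under 0.05, 6 members were lower and 2 higher, where 8.26% of all genes were lower and 8.61% higher. DESeq2 called 2, Atm and Fancm, both lower. The median log2 fold change was -0.04, against 0.01 for all genes tested, with 26 negative and 14 positive. The SE of the members ran from 0.05 to 0.26, so a change as small as that of Msh6 with age would be little more than 1 SE for the least precise genes. The 5 genes that fell with age stood at 0.14 ± 0.11 (Ung), 0.03 ± 0.08 (Msh6), -0.03 ± 0.10 (Rad54l), -0.16 ± 0.16 (Blm) and -0.20 ± 0.12 (Brca2) in OC+SM against OC ovaries. Ung, for example, had 11.4, 12.1 and 14.2 CPM (lowest, median, highest) in OC+SM ovaries, against 9.24, 11.6 and 13.2 CPM in OC ovaries, and the groups overlapped.

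Fancm came closest to a call. It had 8.40, 9.73 and 12.1 CPM (lowest, median, highest) in OC+SM ovaries, against 11.0, 13.6 and 17.9 CPM in OC ovaries, with some overlap (log2 fold change -0.46 ± 0.12 SE, edgeR adjusted p = 0.0594). It passed without any 1 of OC library 5, YC library 3 and OC+SM libraries 4 and 5, with values between -0.52 and -0.46. Atm had 22.4, 28.8 and 31.8 CPM in OC+SM ovaries, against 30.6, 33.7 and 37.2 CPM in OC ovaries. Its groups overlapped too (-0.29 ± 0.09 SE, edgeR adjusted p = 0.0880), and it passed without OC+SM library 4 (-0.33). The lowest 3 Atm values were those of OC+SM libraries 1, 2 and 3, which stood apart in composition. Without these 3 libraries together Atm stood at -0.13 ± 0.09 and Fancm at -0.32 ± 0.15, neither called, and with the share of the most abundant gene as a covariate at -0.10 ± 0.10 and -0.20 ± 0.14. Chek1 had 4.61, 13.3 and 17.1 CPM in OC+SM ovaries, against 14.8, 15.8 and 22.2 CPM in OC ovaries, with overlap and the lowest value in OC+SM library 6 (-0.45 ± 0.21 SE, edgeR adjusted p = 0.281). On the deposited TPM values, limma called Chek1 and Mcm9 in this comparison.

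Of the 14 members with a positive value, 2, Ogg1 and Fanca, had an unadjusted p under 0.05. Ogg1 had 6.59 ± 0.743 CPM in OC+SM and 5.05 ± 1.29 CPM in OC ovaries (SD, n = 6 each; 0.38 ± 0.18 SE, edgeR adjusted p = 0.267). Fanca had 6.83, 7.70 and 9.29 CPM in OC+SM ovaries, against 5.05, 6.44 and 7.08 CPM in OC ovaries, with little overlap (0.34 ± 0.15 SE, edgeR adjusted p = 0.241). Prkdc had 7.40, 11.1 and 13.2 CPM in OC+SM ovaries, against 8.45, 9.69 and 10.7 CPM in OC ovaries, with overlap (0.18 ± 0.13 SE, edgeR adjusted p = 0.498). Because OC ovaries enter this comparison and that with YC ovaries, the values of the 2 comparisons are not independent.

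In OC+SM against YC ovaries 12 of the 40 repair genes fell and none rose, where 10.9% of all genes fell and 11.5% rose. The 12 genes, 30.0% of the members, were the 5 that fell with age alone and 7 others, Brca1, Atm, Rad50, Trp53bp1, Xpc, Fancm and Mcm8. The median log2 fold change was -0.13, against 0.00 for all genes tested, and 31 values were negative and 9 positive. At an unadjusted p under 0.05, 14 members were lower and 1 higher, where 16.4% of all genes were lower and 17.5% higher. For the 7 others the difference between OC+SM and OC ovaries is the test above, in which edgeR called none and DESeq2 called Atm and Fancm. For 7 members every OC+SM library lay below every YC library (17.5%, where the share was 4.65% of all genes tested). They were Brca2, Rad54l, Ung, Xpc, Fancm, Mcm8 and Parp1, of which Parp1 was not called, with 78.0 ± 2.77 CPM in OC+SM and 85.6 ± 3.20 CPM in YC ovaries (SD, n = 6 each; -0.13 ± 0.05 SE, edgeR adjusted p = 0.0715).

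The 5 genes that fell in OC ovaries were also lower here. Ung stood at -0.82 ± 0.11 SE and Brca2 at -0.85 ± 0.12, with 10.7, 12.1 and 15.2 CPM (lowest, median, highest) of Brca2 in OC+SM ovaries, against 19.4, 21.7 and 27.9 CPM in YC ovaries (edgeR adjusted p = 1.28e-05 and 2.78e-05). Blm had 5.31, 6.97 and 9.35 CPM in OC+SM ovaries, against 8.47, 11.8 and 13.4 CPM in YC ovaries, with overlap (-0.67 ± 0.16). Rad54l had 25.9, 28.4 and 29.8 CPM in OC+SM ovaries, against 33.5, 36.2 and 41.0 CPM in YC ovaries, with no overlap (-0.37 ± 0.10). Msh6 had 21.5, 25.7 and 29.0 CPM in OC+SM ovaries, against 26.9, 30.7 and 34.6 CPM in YC ovaries, with overlap (-0.26 ± 0.08); without YC library 2 or OC+SM library 2 the value was -0.22 and no longer passed.

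Of the 7 others, 3 serve damage sensing. Rad50, the clamp-like subunit of the end-binding complex, had 52.0, 64.4 and 76.0 CPM (lowest, median, highest) in OC+SM ovaries, against 71.6, 80.9 and 92.0 CPM in YC ovaries, with overlap (-0.34 ± 0.09 SE, edgeR adjusted p = 0.00648). Trp53bp1 had 9.61, 13.3 and 18.3 CPM in OC+SM ovaries, against 14.4, 19.2 and 22.4 CPM in YC ovaries, also with overlap (-0.50 ± 0.13 SE, edgeR adjusted p = 0.00834). Its 3 lowest values were those of OC+SM libraries 1, 2 and 3. Atm had the 22.4 to 31.8 CPM given above in OC+SM and 29.4 to 36.6 CPM in YC ovaries (-0.28 ± 0.09 SE, edgeR adjusted p = 0.0223), and the call was lost without any 1 of YC libraries 4 and 6 and OC+SM libraries 2 and 3 (values between -0.26 and -0.23). Xpc had 13.6, 16.1 and 17.4 CPM in OC+SM ovaries, against 17.8, 20.6 and 26.5 CPM in YC ovaries, with no overlap (-0.41 ± 0.11 SE, edgeR adjusted p = 0.00723). Fancm had 8.40 to 12.1 CPM in OC+SM and 12.3 to 16.8 CPM in YC ovaries, again with no overlap (-0.50 ± 0.12 SE, edgeR adjusted p = 0.00435). Brca1 had 3.13, 3.60 and 5.68 CPM in OC+SM ovaries, against 4.21, 6.78 and 7.53 CPM in YC ovaries, with overlap (-0.66 ± 0.19 SE, edgeR adjusted p = 0.0140). Mcm8 had 2.38, 2.77 and 3.16 CPM in OC+SM ovaries, against 3.37, 4.36 and 5.04 CPM in YC ovaries, with no overlap (-0.62 ± 0.18 SE, edgeR adjusted p = 0.0125).

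**Figure D4:**
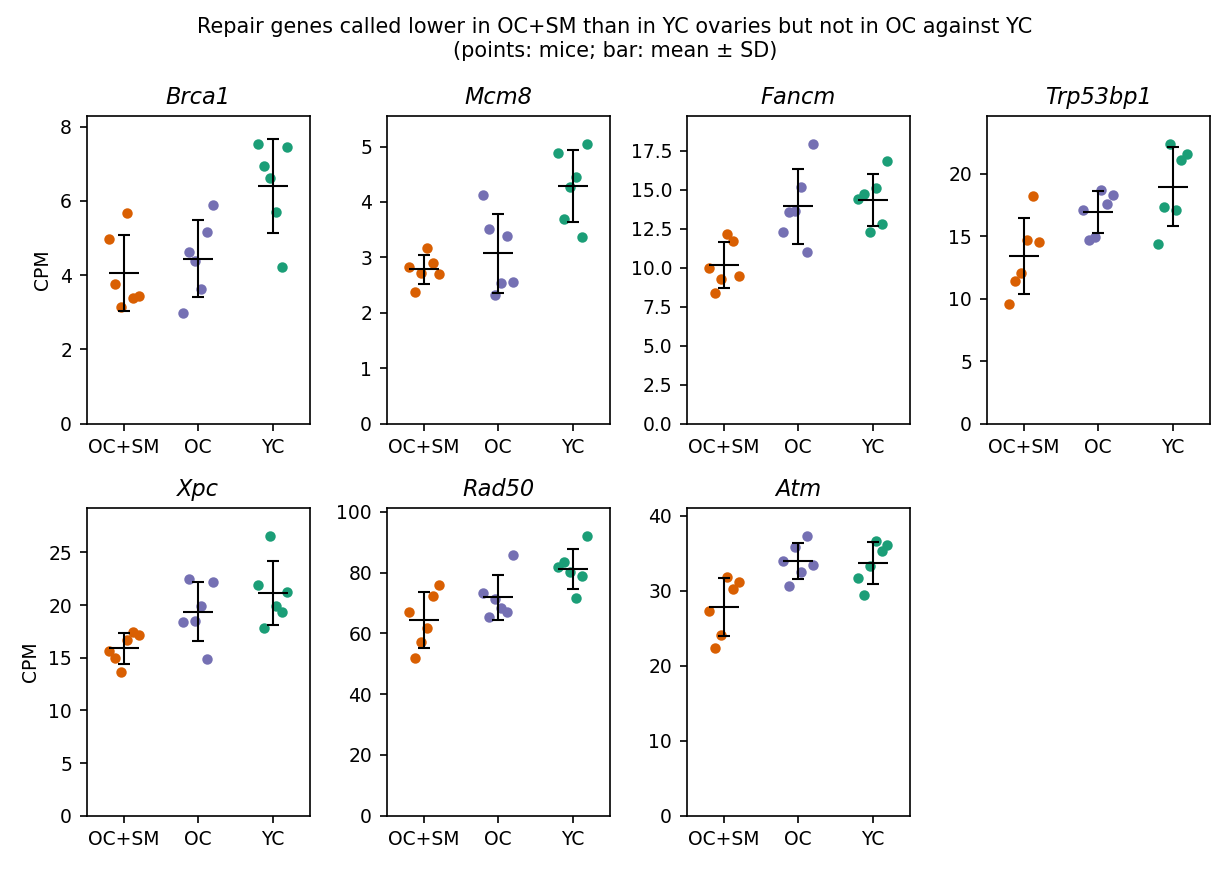
CPM (vertical axis, from 0) of the 7 repair genes called lower in OC+SM than in YC ovaries but not in OC against YC ovaries, with 1 point per mouse and the mean ± SD of 6 mice as a bar. OC points of Atm, Fancm and Xpc lie near those of YC, and those of Brca1 and Mcm8 nearer those of OC+SM; edgeR called none of the 7 between OC+SM and OC, and DESeq2 called Atm and Fancm.

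Of these 12 calls, 3 held without the OC+SM libraries that stood apart. Without OC+SM libraries 1, 2 and 3 together, 4 members were called, Brca2 (-0.80), Ung (-0.81) and Blm (-0.60) among the 12 and Bard1 besides them, in a comparison of 3 with 6 mice. Calls over all genes dropped as well. In this setting 4.91% of all genes were called lower and 5.56% higher, where it was 10.9% and 11.5% with all 6 libraries. Rad54l (-0.38), Msh6 (-0.28), Brca1 (-0.62) and Mcm8 (-0.55) kept values near those above with a larger SE. Fancm then stood at -0.37, Xpc at -0.30, Trp53bp1 at -0.25, Rad50 at -0.21 and Atm at -0.12. The 7 members whose groups did not overlap were then 9, with Msh6 and Fancd2 added. Groups of 3 and 6 mice separate more easily than 2 groups of 6. The share of all genes that did so was not counted here, so the 2 counts cannot be compared. With the share of the most abundant gene as a covariate, Brca2 (-0.71) and Ung (-0.74) were called, where 3.96% of all genes were called lower and 4.63% higher. The other 10 ran from -0.58 for Mcm8 to -0.12 for Atm: Rad54l (-0.38), Msh6 (-0.29) and Mcm8 were near the values above, and Rad50 (-0.18), Atm, Trp53bp1 (-0.27), Xpc (-0.24), Fancm (-0.29), Brca1 (-0.46) and Blm (-0.42) were smaller. These alternatives were chosen after the data were seen.

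The oocyte sum was 47.3 to 98.0 CPM in OC+SM ovaries, against 169 to 259 CPM in YC ovaries, and all 19 markers fell. With that sum as a covariate no member was called. The share of all genes called is not given here. The SE was larger for all 12 with this covariate. The log2 fold changes of Trp53bp1 (-0.52), Xpc (-0.48), Rad54l (-0.41), Atm (-0.32) and Msh6 (-0.26) were then about as large as without it, or larger, and those of Ung (-0.52), Brca2 (-0.51), Rad50 (-0.27), Fancm (-0.26), Mcm8 (-0.29), Blm (-0.25) and Brca1 (0.12) were smaller or of the other sign. Dividing cell sums were 688 ± 159 CPM in OC+SM and 818 ± 47.5 CPM in YC ovaries (SD, n = 6 each; exact permutation p = 0.0628, adjusted p = 0.128), with 5 of 24 markers lower. With that sum as a covariate 10 members were called: Nbn was added, and Brca1 (-0.52, edgeR adjusted p = 0.0950), Mcm8 (-0.56, 0.0643) and Msh6 (-0.26, 0.0671) no longer passed. On the deposited TPM values, limma called 10 as well. The share of all genes called is not given here for the dividing cell covariate or for TPM. Rad54l (-0.08), Brca1 (-0.27), Xpc (-0.29) and Blm (-0.43) were not called on log2(TPM + 1), while Chek1 and Mcm9 were. With age, Blm (-0.42) was the 1 of the 5 that limma did not call on that scale. Adding 1 shrinks the differences of genes at low TPM, so sizes on that scale cannot be compared with those from edgeR.

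Other repair genes were counted in the same way. Of 93 tested genes from a list of 96 other repair genes, 8 fell (8.60%) and none rose in OC against YC ovaries, where 6.03% of all genes fell and 5.25% rose (median log2 fold change -0.08). They were Timeless, which protects replication forks (-0.51 ± 0.12 SE), the replicative ligase Lig1 (-0.38 ± 0.09), the helicase and Brca1 partner Brip1 (-0.58 ± 0.15), Ube2t of the Fanconi anemia route (-0.80 ± 0.21), the nuclease Dna2 (-0.66 ± 0.18), the checkpoint scaffold Topbp1 (-0.24 ± 0.08), the translesion polymerase subunit Rev3l (-0.26 ± 0.08) and the ubiquitin ligase Rnf8 (-0.24 ± 0.08). In OC+SM against OC ovaries 1 gene was called, Pcna, the sliding clamp of replication, which rose to 66.2 ± 3.63 CPM in OC+SM ovaries, against 52.8 ± 2.69 CPM in OC ovaries (SD, n = 6 each; 0.33 ± 0.07 SE, edgeR adjusted p = 0.0242). Without OC+SM libraries 1, 2 and 3 Pcna stood at 0.28 and was not called (edgeR adjusted p = 0.213). In OC+SM against YC ovaries 11 fell (11.8%) and 3 rose (3.23%), where 10.9% of all genes fell and 11.5% rose (median -0.04). Those with the smallest p were Lig1, Rev3l, Brip1, Clspn, Timeless, Rfc1 and Trp53 among the lower and Pcna among the higher. The share that fell was near that of all genes in this comparison and somewhat above it with age. Without OC+SM libraries 1, 2 and 3, 9 of 94 fell (9.57%) and none rose, where 4.91% of all genes fell. With the share of the most abundant gene as a covariate, 12.9% fell with age and 6.45% in OC+SM against YC ovaries. Of all genes 6.86% and 3.96% fell in these 2 comparisons.

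Genes listed for meiotic recombination, many of whose products help to pair chromosomes and exchange strands between them in germ cells, were counted as well. Of 25 listed, 11 were tested, and 6 of these fell and none rose in OC against YC ovaries, where 6.03% of all genes fell. The median log2 fold change of the 11 was -0.66. The cohesin subunit Smc1b had 1.06 ± 0.480 CPM in OC and 3.92 ± 0.745 CPM in YC ovaries (SD, n = 6 each; -1.88 ± 0.29 SE, edgeR adjusted p = 9.71e-05). Taf4b, a transcription factor subunit, stood at -0.59 ± 0.12, and Syce2 of the synaptonemal complex at -0.66 ± 0.17. None was called in OC+SM against OC ovaries, where 1 was lower and 2 higher at an unadjusted p under 0.05, and 4 fell in OC+SM against YC ovaries, or 1 of 13 tested without OC+SM libraries 1, 2 and 3. Of all genes 10.9% fell in OC+SM against YC ovaries, or 4.91% without these libraries. The called genes of this list and the oocyte markers above were lower in the same ovaries as the 5 repair genes. Which cells the genes of this list were expressed in was not tested.

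The counts behind the members limit some of these values. Expected counts of a member ran from 13.6 to 1650 per library, and the lowest mean CPM values were those of Fancd2, Palb2 and Mcm8. The coefficient of variation between mice of a group had a median over the members of 14.4% in OC+SM, 12.4% in OC and 12.8% in YC ovaries. It was highest for Bard1 in OC+SM (43.6%), Fancd2 in OC (39.1%) and Ogg1 in YC ovaries (26.9%), and Parp1 had the lowest in OC+SM (3.55%) and YC ovaries (3.74%). Counts were whole in all 18 libraries for 12 members, Ung, Brca1, Atm and Xpc among them. RSEM splits reads that match several genes, and for the other 28 at least 1 library held a count that was not whole; this was so in all 18 libraries for Trp53bp1, 17 for Blm and 16 for Rad54l. In a mouse annotation of the earlier build, 15 members overlap exons of another tested gene on the opposite strand. Among called genes these are Rad54l with Lrrc41, Trp53bp1 with Tubgcp4 and Msh6 with Fbxo11, and no source used here gives the strand setting of the counting. Fbxo11 stood at -0.13 ± 0.09 and Lrrc41 at 0.48 ± 0.39 in OC against YC ovaries. In OC+SM against YC ovaries Fbxo11 stood at -0.20 ± 0.09 (edgeR adjusted p = 0.0938), Lrrc41 at -0.29 ± 0.39 and Tubgcp4 at 0.09 ± 0.07. None of these was called. Fbxo11 was thus negative in both comparisons, as Msh6 was, and whether its reads entered the counts of Msh6 was not tested.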

How the data were processed

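QuantSeq 3' libraries of 18 ovaries, 1 per mouse, read the 3' end of each transcript, per the labels' protocols. STAR 2.7.9a, RSEM 1.3.3, FastQC 1.9 and the build GRCm39 are named in the submitters' processing notes; no source used here gives the annotation or the strand setting. The authors deposited RSEM expected counts per gene, per the file headers, of which 87.4% lay within 0.005 of a whole number. The authors also deposited TPM values, divided by effective length, which does not suit 3' tags; they served only as an alternative.

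Expected counts were rounded. Symbols came from a mouse annotation, matched by identifier (52083 of 55416). Genes were kept by the edgeR filter (10 counts at median depth, 15 in all), scaled by TMM and tested with edgeR 4.0.16 (quasi-likelihood, robust, two-sided) in R 4.3.3, all 18 libraries in 1 fit. The test was checked on simulated data. Alternatives included DESeq2 1.42.0, limma 3.58.1 on log2 TPM or CPM with pseudocounts of 1 or 0.1, other filters and scalings, marker covariates and each library left out. Library measures were compared by exact permutation over 924 regroupings. No pair of libraries agreed within sampling noise (lowest chi-square per degree of freedom 4.11).

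The members and lists were chosen with earlier results of these data known. Values per library were given for each member called in any comparison and for the member with the smallest p with age in each repair group; other repair genes were named when called, up to 8 per comparison. Some of the other members (Atm, Chek1, Parp1, Pms2, Ogg1 and others) were described after their values were seen. Promoter windows came from RefSeq (GRCm38.p6), the first listed per gene; 8 members had no entry.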

Additional observations from a re-analysis of the deposited data

Results flagged for a closer look

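In OC ovaries, library 6 stood far from the others for Rad50, with 86.0 CPM, where the other 5 OC libraries had 65.5 to 73.2 CPM. The gap to the next library, as a share of the range of the group, was just above the critical value of Dixon's test for 6 samples. Of 42 sets of a gene and a group that were examined, 1 was marked in this way, and chance marks about 1 in 20. In OC against YC ovaries Rad50 stood at -0.18 ± 0.09 SE on the log2 scale with this library and at -0.23 ± 0.09 SE without it, not called either way (edgeR adjusted p = 0.212 and 0.0848).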

How the results depend on the processing

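With age, Ung and Brca2 kept their call in 34 of 35 alternatives in each comparison with YC ovaries, the exception being the oocyte marker covariate. The 5 members called in OC against YC ovaries became 0 with the oocyte covariate, and 3 to 5 when 1 library was left out (3 without OC library 2, 4 or 5 or YC library 2 or 3). Some of these fits called Mcm8, Brca1 or Fanca, which are not among the 5. For fits with 1 library left out, the share of all genes called is not given here. With the share of the most abundant gene as a covariate 6 were called, where 6.86% of all genes were called lower and 6.42% higher. The 12 called in OC+SM against YC ovaries became 0 with the oocyte covariate. Under it 5 of them kept a log2 fold change about as large with a larger SE. The share of all genes called with the oocyte covariate is not given here, so whether the loss is particular to the repair genes cannot be told. The 12 became 4 without OC+SM libraries 1, 2 and 3 and 2 with the share covariate. Of all genes 4.91% and 3.96% were called lower in these settings, against 10.9% in the main fit. With 1 library left out the count was 10 to 14, and the genes gained were Nbn and Ogg1. Ogg1 was gained without OC library 4 and without YC library 1. Unlike the 12, it had a higher mean in OC+SM (6.59 ± 0.743 CPM) than in YC ovaries (4.77 ± 1.29 CPM, SD, n = 6 each). Brca1 then stood at 0.12 (adjusted p = 0.959) with the oocyte covariate, a change of sign that was not called. The 0 of OC+SM against OC ovaries became 1 with the oocyte covariate (Fancm), 1 without YC library 3 and OC+SM library 6 (Atm), 2 with DESeq2, 2 with limma on log2(TPM + 1) and 2 on log2(TPM + 0.1) (Chek1 and Mcm9 in both), and 0 to 2 with 1 library left out. The cause of these changes was not tested. Fewer mice were compared where libraries were left out. With the replicate number as a block, 4, 0 and 13 members were called. Same-numbered libraries did not deviate together (correlations from -0.12 to 0.07, and the library correlated best with its own number in 3 of 18 cases). The labels do not state that the numbers pair the mice. These correlations showed no pairing, but they cannot exclude that same-numbered mice shared a cage or handling. Of the 35 alternatives, 29, 26 and 32 stayed within 1.5 times the count in OC against YC, OC+SM against OC and OC+SM against YC ovaries. In OC against YC ovaries the largest SE were those of Fancd2, Palb2 and Bard1 (0.26, 0.24 and 0.23), and low counts limit Fancd2 and Palb2, the members with the lowest mean CPM.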
